A study of Caenorhabditis elegans with 2 samples.

Results

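The genes described here encode the proteasome, the mitochondrial ATP synthase and the factors of translation in Caenorhabditis elegans. They were chosen by name: every protein-coding gene named pas-, pbs-, rpt- or rpn- with a number, atp- with a number, eef-, or eif- with a number. This gave 69 of the 19973 protein-coding genes on the nuclear chromosomes, of which 33 were proteasome genes, 5 ATP synthase genes and 31 translation factor genes. They were examined in a ChIP-seq study of PAG-3, a zinc-finger protein of the Gfi family, precipitated through a tag with an antibody against GFP. Strain OP154 carried the mutation unc-119(ed3) on chromosome III and the integrated transgene wgIs154, which expresses PAG-3 joined at its C-terminus to GFP and FLAG. Whole hermaphrodite larvae of the first stage (L1), synchronized by bleaching and starvation, were collected 6 hours after synchronization. The 2 biological replicates formed 1 group, and no control sample was analysed here. No mark was at hand for regions that turn up with many unrelated factors, so each region belongs to the precipitate and is no shown site of PAG-3.

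The proteasome degrades proteins marked with ubiquitin. Its 20S core is a barrel of alpha rings, which gate the entry, and beta rings, which cut the chain, and its 19S cap recognizes, unfolds and feeds in the substrate through a ring of ATPases. The ATP synthase of the inner mitochondrial membrane makes ATP from the proton gradient of the respiratory chain, and the initiation factors (eIF) and elongation factors (eEF) start the ribosome on an mRNA and move it along. All are used by nearly every cell, and PAG-3 is known for its part in the development of a few kinds of neurons.

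The authors deposited a list of 30000 regions for each replicate, a list of 30000 regions called on both replicates together (the pooled list), and the 910 peaks kept after thresholding on reproducibility (the irreproducible discovery rate, IDR). The thresholded peaks were identical to the 910 pooled regions of highest signal, so the threshold acted as a minimum signal of 43.4. Signal is the value the authors deposited for each region. Its scale is not stated, and it is compared here only within a list, where ranks run from 1 for the highest. The lists give no read counts, so the depth behind each value is unknown, and the lower part of each list is background by design. A gene was counted when the summit of a region lay from 1000 bp upstream to 200 bp downstream of its start, called the promoter window below. A replicate region was matched to a pooled region when their summits lay within 100 bp. A replicate without a match can still have a region elsewhere in the window. Positions are on ce11 (WBcel235), counted from 1.

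Of the 69 members, 6 had a thresholded summit in the promoter window, namely eef-1A.1, rpn-3, rpn-6.1, eif-3.J, rpt-2 and atp-5. This was 8.70% of members (Wilson 95% interval 4.05 to 17.7), against 2.56% of all protein-coding genes. Each of the 3 groups held at least 1 of the 6. When each summit was given only to the nearest start, 2 members kept one, eif-3.J and rpt-2, or 2.90% against 2.01% of all genes. The other 4 summits were nearer to the start of a neighbouring gene, and the lists do not tell which gene a region belongs to. The intervals cover counting error only, and members that share a region are not independent.

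The weaker pooled regions were far more widespread. A pooled region lay in the window of 50 members (72.5%, 60.95 to 81.6), against 40.6% of all genes. The 50 genes had 49 regions, because pbs-2 and eif-6 stand head to head and share one. Among genes with a region, the median signal was 25.2 for members (range 14.7 to 85.5) and 18.7 for all genes, and the median rank was 4124 for members and 11150 for all genes. Most member regions were thus below the threshold but above the middle of the promoter regions in the list. Taking the highest 1820 pooled regions, 16 members had a summit (23.2%), against 5.07% of all genes. With the highest 15000 regions, these shares were 59.4% of members and 25% of all genes.

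**Figure D1:**
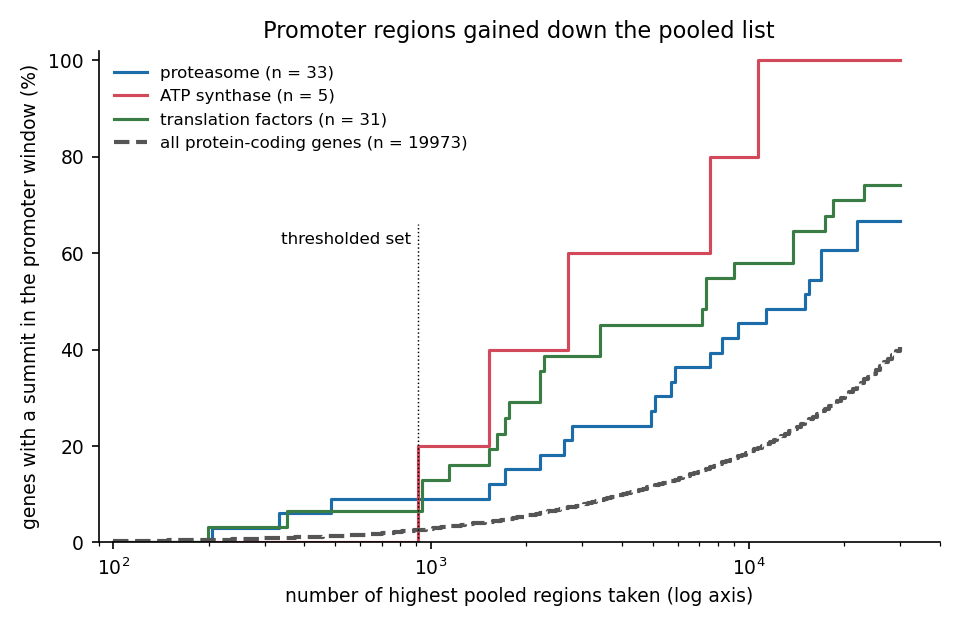
Share of genes with a summit in the promoter window (vertical axis, percent) against the number of highest pooled regions taken (horizontal log axis), for the 3 groups of members and for all protein-coding genes. The dotted line marks the 910 regions of the thresholded set, and at 1820 regions the groups stood at 15.2% (proteasome), 40% (ATP synthase) and 29% (translation factors), against 5.07% of all genes.

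The sequences under 5 of the 6 thresholded summits and under a pair of summits just below the threshold are shown as examples of these regions. The sixth, at eif-3.J, is not printed. Each is 151 bases of the RefSeq genome of WBcel235, reaching 75 bases to each side of the summit and written 5′ to 3′ on the strand of the member. Capitals mark any match, on either strand, to AATCAC (the core of the site of vertebrate Gfi1), to the repeat GAGAGA, to either of ATGGCA and GACGCA, or to the E-box CACGTG. In the order printed they are chrIII:6971990-6972140 (minus strand), chrIII:8446920-8447070 (plus), chrIII:6962251-6962401 (minus), chrV:6017740-6017890 (minus), chrV:11124163-11124313 (minus), chrV:10965612-10965762 (plus) and chrIV:4810448-4810598 (plus).
eef-1A.1: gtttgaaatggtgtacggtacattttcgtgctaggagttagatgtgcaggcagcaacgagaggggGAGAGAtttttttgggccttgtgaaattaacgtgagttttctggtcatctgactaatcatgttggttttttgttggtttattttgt
rpn-3: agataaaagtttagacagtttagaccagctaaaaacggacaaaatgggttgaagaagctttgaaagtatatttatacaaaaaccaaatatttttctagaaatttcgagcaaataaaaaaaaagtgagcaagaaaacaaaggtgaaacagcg
rpn-6.1: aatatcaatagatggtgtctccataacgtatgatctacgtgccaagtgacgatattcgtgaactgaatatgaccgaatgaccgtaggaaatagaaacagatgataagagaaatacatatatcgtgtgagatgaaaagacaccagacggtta
rpt-2: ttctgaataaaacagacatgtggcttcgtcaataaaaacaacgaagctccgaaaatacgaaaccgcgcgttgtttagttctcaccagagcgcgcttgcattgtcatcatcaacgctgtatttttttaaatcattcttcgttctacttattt
atp-5: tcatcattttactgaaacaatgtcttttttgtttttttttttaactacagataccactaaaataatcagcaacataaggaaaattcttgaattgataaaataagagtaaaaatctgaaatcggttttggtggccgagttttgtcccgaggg
eef-1G: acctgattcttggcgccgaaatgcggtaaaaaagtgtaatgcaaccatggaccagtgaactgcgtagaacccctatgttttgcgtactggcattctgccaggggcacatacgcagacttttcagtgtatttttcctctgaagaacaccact
eif-1.A: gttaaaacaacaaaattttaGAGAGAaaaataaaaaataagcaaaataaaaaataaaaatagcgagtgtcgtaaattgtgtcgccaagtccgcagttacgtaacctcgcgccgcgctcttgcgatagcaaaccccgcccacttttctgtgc
The first 5 were thresholded, and those of eef-1G and eif-1.A were not. Within 50 bp of the summit, GAGAGA stood at eef-1A.1, and the other 6 sequences printed held none of the 5 words. The summit of eif-3.J, not printed, had ATGGCA within 50 bp. The capitals in eif-1.A lie beyond 50 bp from its summit. Guanine and cytosine made up 29.8% of bases at rpn-3, 30.5% at atp-5 and 47.02% at eef-1G.

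The same 5 words were counted at all member summits, most of which were not thresholded. Among the 6 thresholded member summits, GAGAGA lay near 1 and ATGGCA near 1 (each 16.7%, 3.005 to 56.35), and these intervals held the shares of all thresholded summits for both words, 28.8% and 15.2%. GAGAGA lay within 50 bp of 2 of the 49 member summits (4.08%, 1.13 to 13.7). That share was below the 28.8% of all thresholded summits, and its interval held the 9.13% of the 7020 pooled summits that were the highest in some promoter window. ATGGCA lay near 3 member summits (6.12%, 2.10 to 16.5), against 15.2% of the thresholded and 4.09% of the promoter summits. The interval for ATGGCA held both of these shares. GACGCA lay near 0 of the 49, where a count of 0 allows up to 7.27% by the same interval, against 11.98% of the thresholded and 4.16% of the promoter summits. CACGTG also lay near 0, against 5.71% and 2.35%. The core AATCAC lay near 3 member summits (6.12%), none of them thresholded, against 5.05% of the thresholded and 5.88% of the promoter summits. The mean share of G and C within 50 bp was 35.8% at member summits and 36.5% at the 6 thresholded ones, against 43.85% over the thresholded set and 35.3% over the promoter summits. A match here is a description of the letters and no evidence of a bound factor.

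Among proteasome genes, thresholded summits lay only at genes of the 19S cap, 3 of its 19 genes (15.8%, 5.52 to 37.6) and 0 of the 14 of the 20S core, where a count of 0 allows up to 21.4%, against 2.56% of all genes. The core's count of 0 does not set it apart from all genes. These intervals overlap, and the difference between cap and core was not tested. The highest was at rpn-3, which encodes a subunit of the lid of the cap. Its summit at 8446995 on chromosome III lay 358 bp upstream of the gene, with a pooled signal of 83.2 (rank 203), 50.6 in replicate 1 (rank 312) and 27.6 in replicate 2 (rank 186). The summit was closer to hsp-110, a chaperone gene transcribed the other way, whose start was 86 bp away.

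The lid subunit gene rpn-6.1 encodes a protein that braces the cap against the core. Its summit at 6962326 on chromosome III lay 325 bp upstream, with a pooled signal of 67.9 (rank 330), 38.4 in replicate 1 (rank 589) and 24.8 in replicate 2 (rank 246). It fell outside coding exons within the neighbouring gene F57B9.1, 236 bp from the start of that gene. The gene rpt-2 encodes an ATPase of the cap. Its summit at 6017815 on chromosome V lay 146 bp upstream, with a pooled signal of 57.1 (rank 484), 32.5 in replicate 1 (rank 840) and 22.1 in replicate 2 (rank 345). Here the member's own start was the nearest, although aps-1 starts within the window in the opposite direction. All 3 regions ranked among the highest 910 in each replicate.

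Below the threshold, the ATPase ring had a pooled region at all 6 of its genes, against 40.6% of all protein-coding genes. The other 5 had signals from 15.03 at rpt-4 to 35.7 at rpt-1. At rpt-1 the summit was 92 bp upstream, and its rank was 1492 in the pooled list, 2575 in replicate 1 (signal 19.9) and 818 in replicate 2 (signal 17.6). The non-ATPase subunits of the cap had a region at 9 of 13 genes (69.2%, 42.4 to 87.3). Besides rpn-3 and rpn-6.1 these were rpn-7 (signal 28.6), rpn-12 (23.8), rpn-11, which encodes the deubiquitinase of the lid (19.8), rpn-13, which encodes a ubiquitin receptor (18.7), rpn-1 (17.1), the ubiquitin receptor gene rpn-10 (17.1) and rpn-8 (15). No pooled region lay at rpn-2, rpn-5, rpn-6.2 or rpn-9.

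The alpha ring of the core had a pooled region at 5 of 7 genes, from 16.5 at pas-6 to 29.05 at pas-3. The beta ring had one at 2 of 7 genes (28.6%, 8.22 to 64.1), pbs-2 with a signal of 34.1 and pbs-7 with 22.9. The beta ring was the one subgroup whose share lay under the 40.6% of all genes, though its interval holds that value. Of the genes for the cutting subunits, pbs-1, pbs-2 and pbs-5, only pbs-2 had a pooled region, the one it shares with eif-6. The region of pbs-7 ranked 646 in replicate 2 and had no match in replicate 1. Core and cap together gave 7 of 14 core genes (50%, 26.8 to 73.2) and 15 of 19 cap genes (78.9%, 56.7 to 91.5) with a pooled region.

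**Figure D2:**
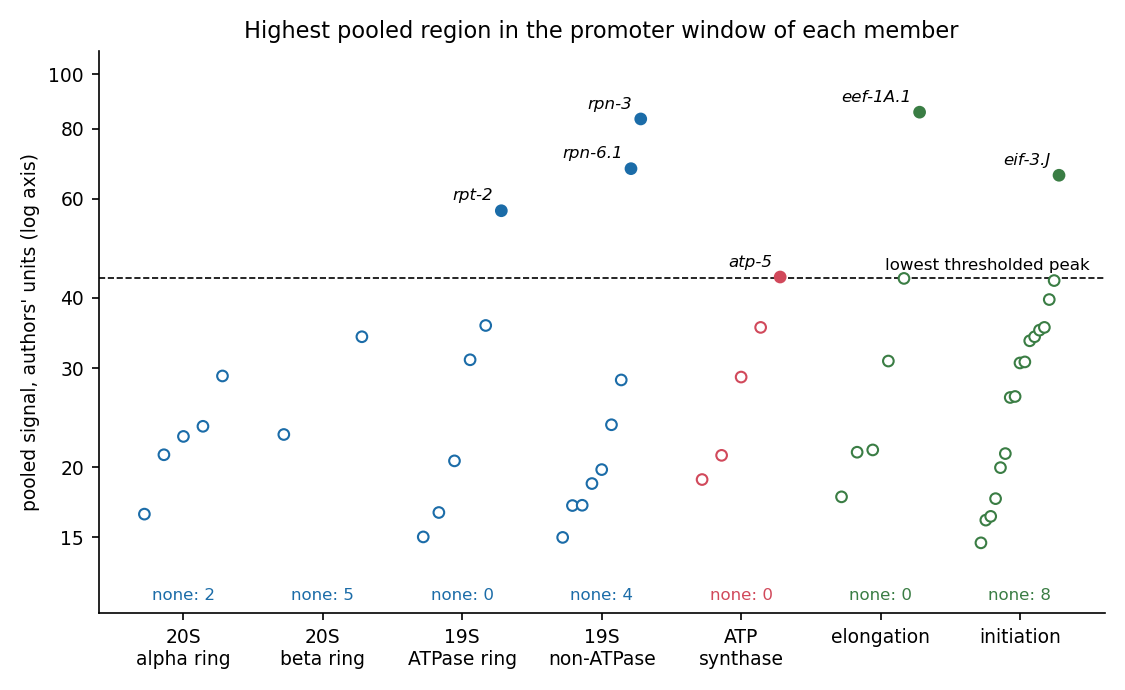
Pooled signal of the highest region in the promoter window of each member (vertical log axis, the authors' units), by the role of the gene. Each point is a gene, filled points are thresholded, the dashed line is the lowest thresholded peak (43.4), and the numbers at the foot count members with no pooled region.

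All 5 ATP synthase genes had a pooled region, against 40.6% of all genes. Of the 5, 1 passed the threshold (20%, 3.62 to 62.45), against 2.56% of all genes. That gene, atp-5, encodes a subunit of the stalk. Its summit at 11124238 on chromosome V lay 371 bp upstream, with a pooled signal of 43.6 (rank 900), 31.01 in replicate 1 (rank 930) and 12.4 in replicate 2 (rank 3396). It stood just inside the threshold, fell outside the highest 910 regions of either replicate, and lay within lmtr-3, 52 bp from the start of that gene. The alpha subunit gene atp-1 came next, with a summit 25 bp upstream, a pooled signal of 35.4 (rank 1520), 32.9 in replicate 1 (rank 824) and 14.9 in replicate 2 (rank 1611). The coupling factor gene atp-4 had a signal of 28.9, with a match in replicate 1 (22.9) and none in replicate 2. The gene atp-3, which encodes the subunit that joins the stalk to the head, had 21.0 and a match only in replicate 2 (10.6). The catalytic beta subunit gene atp-2 had 19.01 and a match only in replicate 1 (11.2). A higher region of replicate 1 lay elsewhere in the window of atp-2 (20.1, rank 2499). The 5 genes thus spanned from just above the threshold to near the median of all promoter regions.

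All 6 elongation factor genes had a pooled region, against 40.6% of all genes. Of the 6, 1 was matched in both replicates (16.7%), against 29.6% of all genes with a region. A region of replicate 2 lay in the window of 3 (50%), against 39% of all genes. The only elongation factor gene past the threshold was eef-1A.1, which had the highest signal of any member. It encodes the factor that brings aminoacyl-tRNA to the ribosome. Its summit at 6972065 on chromosome III lay 353 bp upstream, with a pooled signal of 85.5 (rank 194), 59.9 in replicate 1 (rank 216) and 28.5 in replicate 2 (rank 167). The nearest start was that of rfc-4, 188 bp from the summit. Its paralogue eef-1A.2, the only member on chromosome X, had 17.7 and a match in replicate 2 alone. Replicate 1 had a region elsewhere in the window of eef-1A.2 (16.5, rank 4096). The gene eef-1G, which encodes a subunit of the exchange factor for eEF1A, was the member just below the threshold. Its summit 32 bp upstream had a pooled signal of 43.3 (rank 918) and 42.0 in replicate 1 (rank 487), and no region of replicate 2 matched it. The other exchange factor genes eef-1B.1 and eef-1B.2 had 30.9 and 21.3, and eef-2, which encodes the translocation factor, had 21.5. Of these, eef-1B.1 was matched in replicate 2 alone, and eef-1B.2 and eef-2 in replicate 1 alone. Replicate 1 had an unmatched region in the window of eef-1B.1 (30.15, rank 1003).

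Initiation factor genes had a pooled region in 17 of 25 cases (68%, 48.4 to 82.8), against 40.6% of all genes. A thresholded summit lay at 1 of the 25 (4%, 0.71 to 19.5), against 2.56% of all genes. That gene was eif-3.J. It encodes a loosely held subunit of eIF3, the complex that prepares the small ribosomal subunit. Its summit at 13434564 on chromosome I lay 925 bp upstream, with a pooled signal of 66.07 (rank 348), 41.3 in replicate 1 (rank 501) and 21.6 in replicate 2 (rank 383). The summit fell in slc-25A46, a gene on the same strand that ends 877 bp before eif-3.J. It lay near the far edge of the window, and a window of 500 bp upstream did not hold it.

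The genes of eIF3 held 9 of the 17 initiation regions, with a median signal of 33.6. Besides eif-3.J, eif-3.C had 39.7 (rank 1132; 20.8 in replicate 1 and 20.3 in replicate 2), eif-3.G 35.4, eif-3.E 35.04, eif-3.I 33.6, eif-3.H 30.8, eif-3.B 26.6, eif-3.D 16.1 and eif-3.F 14.7. Of its 11 named genes only eif-3.K and eif-3.L had no pooled region. The scanning factor gene eif-1.A had a summit 411 bp upstream with 42.9 (rank 934), 23.6 in replicate 1 (rank 1734) and 11.8 in replicate 2 (rank 4256). It was thus the second member just outside the threshold. The gene eif-1, which encodes another scanning factor, had 26.7, and eif-6, whose product keeps the large ribosomal subunit from joining early, had the shared region of 34.1.

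The factor that carries the initiator tRNA, eIF2, had a pooled region at 1 of 3 genes, and its exchange factor eIF2B at 3 of 5. For eIF3 it was 9 of 11, and for all genes 40.6%. The median signal was 21.1 for eIF2B and 33.6 for eIF3, but eif-2Bgamma stood higher than eif-3.B, eif-3.D and eif-3.F. Of the eIF2 subunit genes, eif-2alpha had 17.6, and eif-2beta and eif-2gamma had no pooled region. Of the eIF2B genes, eif-2Bgamma had 30.6, eif-2Bdelta 21.1 and eif-2Balpha 16.4, and eif-2Bbeta and eif-2Bepsilon had none. The gene eif-2A had 19.96, and neither eif-2D nor eif-4A3, whose product is a helicase of the exon junction complex, had one. These differences within initiation were read from the values of few genes and were not tested.

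The 3 groups could not be ranked from these lists. Thresholded shares were 9.09% of proteasome genes (3.14 to 23.6), 20% of ATP synthase genes (3.62 to 62.45) and 6.45% of translation factor genes (1.79 to 20.7), against 2.56% of all genes, and all 3 intervals held the shares of the others. The interval of the translation factors also held the share of all genes. The order turned with the list: in replicate 2 alone the highest 910 regions gave 15.2% of proteasome genes, 0% of ATP synthase genes and 16.1% of translation factor genes, against 2.53% of all genes. Pooled shares were 66.7% of proteasome genes (49.6 to 80.2), 100% of ATP synthase genes (56.55 to 100) and 74.2% of translation factor genes (56.75 to 86.3), against 40.6% of all genes. The median signals of genes with a region were 22.8 for the proteasome, 28.9 for ATP synthase and 30.6 for translation factors. Each of these medians exceeded the 18.7 of all genes, but the 95% interval of the proteasome median, 17.1 to 31.04, held that value. No interval was set for the 5 genes of ATP synthase. The middle of the translation factor list stood higher than that of the proteasome, but the 95% intervals of these medians, 21.1 to 35.04 and 17.1 to 31.04, overlapped widely. The difference between groups was not tested.

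The replicates gave a similar picture of the members and differed in detail. A region of replicate 1 lay in the window of 51 members (73.9%), against 40.2% of all genes, and a region of replicate 2 in that of 40 members (57.97%), against 39% of all genes. Among the highest 910 regions of each list, 7 members were found in replicate 1 (10.1%, 5.00 to 19.5), against 2.47% of all genes. In replicate 2 there were 10 (14.5%, 8.07 to 24.7), against 2.53% of all genes. Of the 6 thresholded members, 5 were among the highest in both replicates, all but atp-5. Replicate 1 added atp-1 and eef-1G, and replicate 2 added eif-1, eif-3.C, eif-3.E, pbs-7 and rpt-1, so no gene below the threshold was high in both.

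Summits of both replicates lay within 100 bp of the pooled summit for 19 of the 50 members with a region (38%, 25.9 to 51.85), against 29.6% over all genes with a pooled region. The region shared by pbs-2 and eif-6 counts for each of them here. A match in replicate 1 alone was found for 19, in replicate 2 alone for 10 and in neither for 2, pas-6 and rpt-4. Members with a thresholded region were matched in both replicates in 6 of 6 cases, and the other members with a region in 13 of 44. The threshold was set on reproducibility between these same replicates, so the 6 matches are no independent support. The ranks of a region could differ widely between replicates: eif-3.E ranked 7407 in replicate 1 and 437 in replicate 2.

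**Figure D3:**
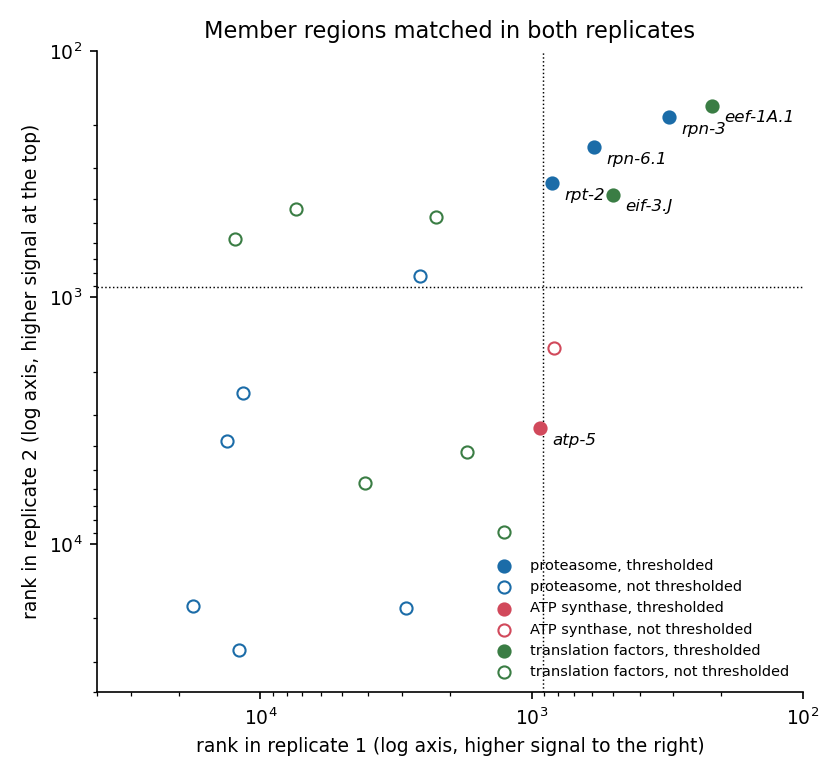
Rank in replicate 1 (horizontal) and replicate 2 (vertical) of the 19 member regions matched in both, on log axes with the highest signal at the upper right. Dotted lines mark rank 910 in each replicate, and 5 of the 6 thresholded regions (filled) rank higher than that in both while atp-5 ranks lower in both.

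No pooled region was found at 19 members. A replicate list alone had one in the window of 9 of them, none ranked higher than rpn-2 (signal 15.5, rank 4913 in replicate 1). The other 10 had no region in any list: pas-5, pbs-3, pbs-4, pbs-5, pbs-6, rpn-5, rpn-6.2, eif-2Bbeta, eif-2beta and eif-3.L. The beta ring of the core supplied 4 of these 10.

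The member summits lay mostly upstream of the gene starts. Their median position was 337 bp upstream, against 318 bp upstream for all genes with a region. Within the 500 bp before the start were 36 of the 50 (72%), against 51.9% of all genes with a region. By group this share was 59.1% in the proteasome, 80% in ATP synthase and 82.6% in translation factors. Downstream of the start lay 4 of the 50, against 1140 of 8101 over all genes with a region. The 4 were at pas-7 (23 bp), rpn-11 (59 bp), atp-3 (78 bp) and eef-2 (4 bp). Gene bodies, mostly those of neighbours, held the summits of 20 of the 50 members, and coding exons those of 6. For 19 members the summit was nearer to the start of another gene: 13 of 22 with a region in the proteasome, 1 of 5 in ATP synthase and 5 of 23 in translation factors. This difference between groups was not tested. In 11 members the window held more than 1 pooled region, and in 3 of them 3. Gene bodies, coding exons, nearest starts and regions per window were not counted over all genes, so these counts have no background share.

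**Figure D4:**
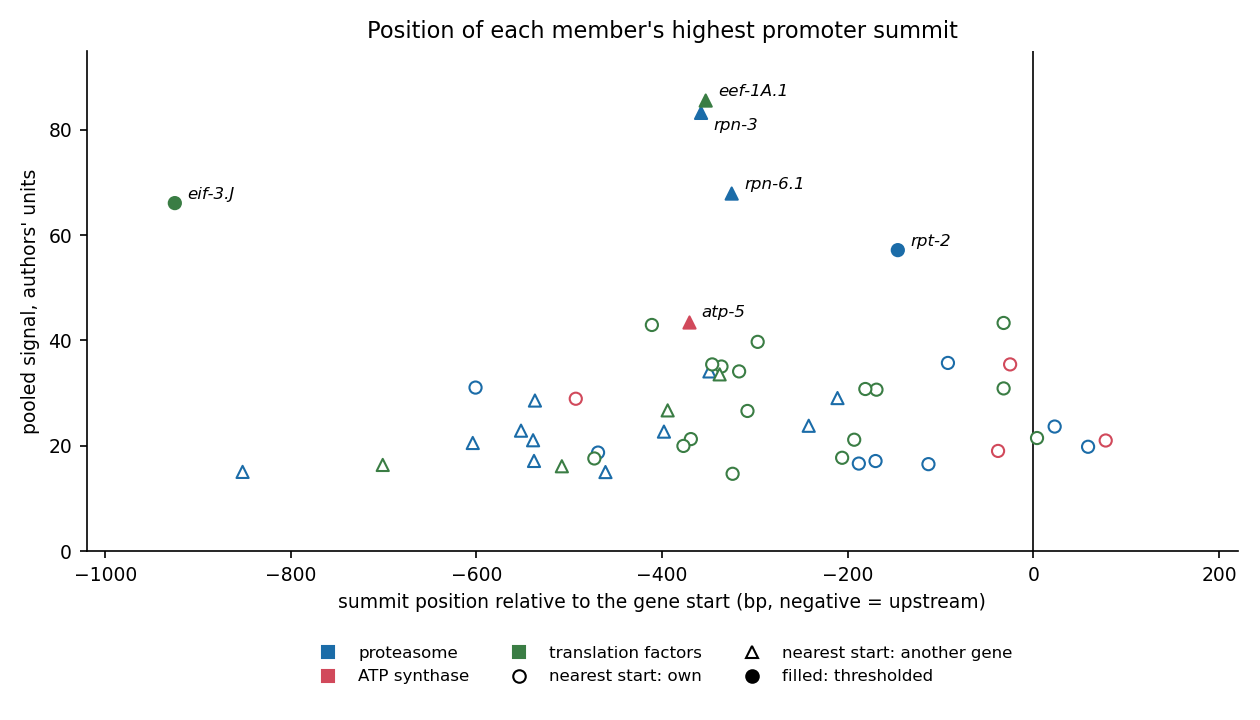
Position of the highest pooled summit relative to the start of each of the 50 members with a region (horizontal, bp, negative upstream) and its pooled signal (vertical, the authors' units). Triangles are summits nearer to the start of another gene, and 4 of the 6 thresholded summits (filled) are among them.

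The crowding of starts was itself a feature of the members. Another protein-coding start lay in the window of 45 of the 69 (65.2%, 53.45 to 75.4), against 21.3% of all genes, and 42 of them (60.9%) had a neighbour starting the other way, against 17.7% of all genes. A gene on the same strand ending within 1000 bp upstream, as in a tight tandem pair or an operon, was found for 19 (27.5%), against 31.5% of all genes. Operons were not annotated here. The pooled and thresholded shares were therefore counted again among genes alike in this respect. With another start in the window, 32 of 45 members had a pooled region (71.1%), against 48.7% of all such genes, and without one 18 of 24 (75%), against 38.4%. Members that had the window to themselves thus had pooled regions about as often as those that shared it. Their regions were weaker, with a median signal of 21.2 against 27.6 (18.1 and 21.4 over all such genes). The order of the pooled shares differed by group. It was 60% alone and 69.6% shared in the proteasome, 84.6% and 66.7% in translation factors, and 100% in both for ATP synthase. These differences in crowding were not tested. The thresholded share was 5 of 45 (11.1%, 4.84 to 23.5), against 4.38%, with another start, and 1 of 24 (4.17%, 0.739 to 20.2), against 2.07%, without one. With a close same-strand gene upstream 14 of 19 members had a pooled region (73.7%), against 38.3% of such genes. Without one it was 36 of 50 (72%), against 41.6%. The thresholded shares were 1 of 19 (5.26%, 0.935 to 24.6), against 1.64%, and 5 of 50 (10%, 4.35 to 21.4), against 2.98%.

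Thresholded summits also lay near members but outside their windows. Within 5 kb of the start, on either side, 14 members had one (20.3%, 12.5 to 31.2), against 8.09% of all genes. Besides the 6 these were pbs-2 and eif-6, which had the same summit near the start of the tubulin gene tba-2 (signal 48.4), rpt-1 with one near snr-4 (52.6), rpn-13 (58.3), rpn-8 (72.7), eef-1G (44.5), eif-2alpha (57.8) and eif-2beta with one 207 bp from the start of cyc-1 (44.6). None lay inside the body of the member itself, and in all 8 cases another gene had the nearest start.

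Genes that work beside the members were counted in the same way from lists set by name. Over all protein-coding genes, 2.56% had a thresholded summit and 40.6% a pooled region. Of 19 proteasome partners 1 had a thresholded promoter summit, cdc-48.1, which encodes the segregase that pulls ubiquitin-marked proteins apart (signal 136, rank 79), and 12 had a pooled region. None of 25 ubiquitin-conjugating enzyme genes had a thresholded summit, and 12 had a pooled region (48%, 30.03 to 66.5). The proteasome genes thus stood at 66.7% and this neighbouring step near the 40.6% of all genes, a difference that was not tested.

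Among the other genes of ATP synthase, mai-1, which encodes a relative of its inhibitor, had a signal of 154 (rank 56). It was the 1 thresholded of 13 genes (7.69%), of which 8 had a pooled region (61.5%, 35.5 to 82.3). Over all genes these shares were 2.56% and 40.6%. The respiratory chain had 6 thresholded among 43 genes (13.95%) and 33 with a pooled region (76.7%, 62.3 to 86.85). The 6 were cox-5A (87.5), ucr-2.2 (62.9), sdha-1 (62.02), cox-5B (47.03), cyc-1 (44.6) and nduf-6 (44.5). The V-ATPase, a related proton pump of acidic organelles, had 3 among 21 (14.3%), at vha-12 (81.7), vha-8 (70.2) and vha-14 (49.4). A pooled region lay at 13 of its genes (61.9%, 40.9 to 79.25).

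Translation factors outside the eef- and eif- names had 2 thresholded among 23 genes, ifg-1, which encodes the scaffold eIF4G (74.9), and iff-2, which encodes eIF5A (73.08), and 20 of the 23 had a pooled region (86.96%, 67.9 to 95.5). The aminoacyl-tRNA synthetases had 2 among 32, lars-1 (157) and nars-1 (44.5, a summit shared with nduf-6), and 14 with a pooled region (43.75%, 28.2 to 60.7). The ribosomal proteins had 16 among 81 (19.75%) and 62 with a pooled region (76.5%, 66.25 to 84.4), with the highest at rpl-11.2 (277) and rpl-15 (119.7). Within translation, the 3 pooled shares of factor and ribosomal protein genes lay from 74.2% to 86.96%, and that of the synthetases near the 40.6% of all genes. Thresholded shares were 8.70% of these other factors, 6.25% of synthetases and 19.75% of ribosomal proteins, against 2.56% of all genes. These differences were not tested. Some thresholded summits of the related genes lay nearer to another start, as at vha-8 (81 bp from C17H12.2), ifg-1 (57 bp from M110.3) and rps-20 (163 bp from ekl-4). No match in replicate 2 was found at sdha-1, vha-14, rpl-35 or rps-23, and none in replicate 1 at cyc-1.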

How the data were processed

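ChIP-seq regions of 2 replicates were used as deposited. Per the labels and the file lists beside the data, the authors made each list from alignments on ce11 against 1 control file. The deposited signal is the authors' value for a region on a scale that is not stated. The deposited summit offset (an other value, in bp) gave each summit. Aligner and peak caller were not given in the sources used here. A second version on ce10 was used only for its number of peaks (960) and its lowest signal.

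Genes and starts came from Ensembl release 115, sequence from the RefSeq genome of the same assembly. Each gene was given the highest summit between 1000 bp before and 200 bp after its start, and replicate regions were matched within 100 bp. Shares have Wilson 95% intervals. A count of 0 was taken to allow up to 3 counts where no interval is named. With 1 group and no control sample, no test between conditions was possible. Alternatives changed the window, the number of regions, the matching distance, the start used and the replicate. The assignment was tested on simulated data. Members, lists and sequence words were chosen with earlier results of these data known. By rule, the text names members with thresholded summits in the window or within 5 kb, the highest members of each group below the threshold and related genes with a thresholded summit, and other members are named to account for all 69. Python 3.11.15, numpy 2.4.6, pandas 2.3.3, scipy 1.17.1 and Biopython 1.88 were used.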

Additional observations from a re-analysis of the deposited data

How the results depend on the processing

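Across 28 results and 100 alternatives, 86 values stayed within the counting interval of the main value and 14 moved, and their cause was not tested. The intervals are wide for so few genes, so a value that stayed could still differ much. With the highest 1820 regions ATP synthase had 40% against a main value of 20%, and this counted as staying. So did translation factors without replicate 1, at 16.1% against 6.45%. The share of members with a thresholded summit was 23.2% with the highest 1820 regions (translation factors 29.03%) and 2.90% with the nearest start only (proteasome 3.03%, ATP synthase 0%). Without genes whose window holds another start it was 0% in the proteasome (0 of 10 genes) and in ATP synthase (0 of 1), against 2.07% of all such genes. With the peaks above the median signal ATP synthase had 0%, and leaving out a replicate gave it 0% to 20%. Each value of 0% lay below the share of all genes under the same setting, where the main values lay above it. These values rest on 10 genes or fewer, too few to tell 0% from the share of all genes. Leaving out a replicate gave pooled shares of 57.97% to 73.9% for all members and 54.8% to 80.65% for translation factors. With the pooled regions above the median signal these were 59.4% for all members and 48.5% for the proteasome. Matching replicates within 200 bp put 54% of the members with a region in both. Taking as many regions as the ce10 set, chosen after seeing the data, added eef-1G and eif-1.A. No paired analysis was possible because the replicates formed 1 group. ATP synthase had 5 genes, so 1 gene moves its share by 20%, and only 1 of them had no other start in its window. Read depth is unknown, so no limit of detection is given.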
